A study of Arabidopsis thaliana with 8 samples.

Results

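The loci described here are the stretch of chromosome 2 around CURLY LEAF (CLF), the gene that the clf-28 allele disrupts. A locus was taken where its start in the deposited gene table lay on chromosome 2 between 8955553 and 10960359 in TAIR10, that is within 1 Mb of either end of the CLF locus (9955553 to 9960359). Of 647 such loci, CLF itself and the MADS-box genes SVP (AT2G22540) and AGL17 (AT2G22630) were set aside, which left 644 of the 34759 loci in the table. They were taken by position rather than by their values, though the members were chosen with earlier results of these data known. The comparison asks whether expression near the inserted allele differed between clf-28 and wild type more than elsewhere on the chromosome.

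CLF is a histone methyltransferase of the Polycomb group. It is a catalytic subunit of Polycomb repressive complex 2, which places trimethylation on lysine 27 of histone H3 over silenced genes. clf-28 is a T-DNA insertion allele in the Col-0 ecotype. In an insertion line, genes next to the inserted DNA can in principle be affected through their position rather than through the mutated protein, so neighbours of the insertion are a usual place to look for local effects. The position of the insertion within CLF is not given in the sources used here.

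Total RNA from 8 samples was sequenced from Illumina TruSeq RNA libraries. The groups were clf-28 roots, clf-28 leaves, clf-28 flowers and clf-28 siliques, against the same organs of wt (Col-0), and every group was a single library. Roots and leaves came from plants 2 weeks old on MS plates, and the labels describe the leaf sample as the aerial part. Flowers and siliques came from plants 5 weeks old in soil, and all plants were kept in long days at 22 °C. With 1 library per genotype and organ there is no replicate within an organ, so no within-organ difference below was tested. Read totals are not in the table, but the most frequent ratio among low loci placed the 8 libraries between 0.927 and 1.01 times the relative depth of wt flowers. This is a rough guide only. The class of that ratio held 39 of 1406 low loci in clf-28 roots and 49 of 1939 in clf-28 siliques.

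A locus was called measured in an organ when both of its values had the status OK and the higher one was 1 FPKM or more (FPKM is a count of fragments scaled by transcript length and library size). Ratios are clf-28 over wt on the log2(FPKM + 1) scale, which understates differences of weakly expressed loci, and "at least 2-fold" means a ratio of 1 or more, or -1 or less, on that scale. CLF's own locus had 7.84 FPKM in clf-28 roots against 17.2 in wt roots, 5.50 in clf-28 leaves against 6.57 in wt leaves, 14.7 in clf-28 flowers against 9.99 in wt flowers and 15.1 in clf-28 siliques against 6.53 in wt siliques. The level over the whole locus was therefore not lower in every library labelled clf-28, and because it does not show which exons were read it does not check the genotype; the names clf-28 and wt below are those of the labels.

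Of the 644 loci, 337 lay at lower coordinates than CLF and 307 at higher coordinates. In the table, 603 carried 1 gene name, 20 carried several names merged into 1 locus and 21 carried none. RefSeq annotation matched 593 of them by locus tag, and 505 of these were protein-coding, 34 were transcribed pseudogenes, 22 were other pseudogenes and the remaining matched loci were tRNA, lncRNA, miRNA and other non-coding genes. There were 36 loci at 0 FPKM in all 8 libraries and 173 that were measured in no organ, while 295 were measured in all 4. A status other than OK occurred at 7 loci, among them SUVH6, a histone methyltransferase gene whose estimate failed in 5 libraries. Another 183 loci shared their coordinates with a further row of the table, so that reads of overlapping or antisense transcripts there cannot be told apart.

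The 2 silique libraries were far apart in seed markers. SESA1 and SESA5, 2S albumin genes of maturing seeds and the 2 of 4 seed markers with a usable status in both libraries, summed to 9492 FPKM in clf-28 siliques against 0.600 in wt siliques, and the one usable green-tissue marker of 3, LHCB2.1, had 548 FPKM in clf-28 siliques against 1753 in wt siliques. The part of this difference in any silique result given below, shares and single loci alike, was not tested. In a bulk sample, more cells of a type and more RNA per cell cannot be told apart.

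Upstream sequences are shown for 6 genes that the results below turn on, the tandem pair next to CLF (AT2G23410, named CPT, and AT2G23400), 3 genes with the largest differences in siliques (LEA, RTNLB13 and AT2G22510) and the locus with the largest ratio in roots (TAT3). Each is the 250 bases before the annotated gene start, 5′ to 3′ on the gene's strand, read from the TAIR10.1 assembly of RefSeq. No other annotated gene overlapped any of these stretches. Capitals mark ACGTG or its reverse complement CACGT, the core bound by many bZIP factors, and CATGCA or its reverse complement TGCATG, an RY-type element of seed genes that was added after the values were seen.
CPT upstream, chr2:9967789-9968038, minus strand: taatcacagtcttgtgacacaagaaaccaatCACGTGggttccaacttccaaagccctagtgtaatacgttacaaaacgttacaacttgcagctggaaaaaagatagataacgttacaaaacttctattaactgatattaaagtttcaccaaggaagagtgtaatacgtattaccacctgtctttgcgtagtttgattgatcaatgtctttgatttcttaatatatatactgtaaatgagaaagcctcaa
AT2G23400 upstream, chr2:9965415-9965664, minus strand: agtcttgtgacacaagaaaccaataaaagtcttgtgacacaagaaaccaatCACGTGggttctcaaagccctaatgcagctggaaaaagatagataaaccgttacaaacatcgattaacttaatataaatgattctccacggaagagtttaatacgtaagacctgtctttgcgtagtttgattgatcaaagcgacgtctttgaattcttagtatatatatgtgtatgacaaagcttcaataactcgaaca
LEA upstream, chr2:9207126-9207375, minus strand: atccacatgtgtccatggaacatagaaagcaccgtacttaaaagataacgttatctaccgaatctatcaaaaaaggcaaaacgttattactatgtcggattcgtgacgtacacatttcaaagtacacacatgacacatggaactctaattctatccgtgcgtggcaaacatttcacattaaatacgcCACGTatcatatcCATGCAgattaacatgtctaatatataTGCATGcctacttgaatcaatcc
RTNLB13 upstream, chr2:10057292-10057541, plus strand: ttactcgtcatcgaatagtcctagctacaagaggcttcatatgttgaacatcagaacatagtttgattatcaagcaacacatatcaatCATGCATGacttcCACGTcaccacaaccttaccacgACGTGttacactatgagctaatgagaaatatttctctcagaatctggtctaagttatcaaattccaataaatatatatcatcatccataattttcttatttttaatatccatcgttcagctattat
AT2G22510 upstream, chr2:9569785-9570034, minus strand: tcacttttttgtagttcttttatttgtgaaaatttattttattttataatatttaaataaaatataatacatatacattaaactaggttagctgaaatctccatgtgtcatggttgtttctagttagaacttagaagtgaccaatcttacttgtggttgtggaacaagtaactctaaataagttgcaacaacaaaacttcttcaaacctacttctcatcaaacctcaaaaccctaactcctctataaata
TAT3 upstream, chr2:10585217-10585466, minus strand: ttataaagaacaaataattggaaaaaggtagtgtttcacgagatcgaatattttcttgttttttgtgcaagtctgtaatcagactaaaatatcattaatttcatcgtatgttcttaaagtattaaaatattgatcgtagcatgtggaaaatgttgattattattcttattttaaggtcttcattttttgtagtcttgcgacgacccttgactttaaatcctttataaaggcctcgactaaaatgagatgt

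The upstream stretches of the tandem pair were alike, with a longest shared run of 35 bases that included the CACGTG palindrome in both genes. LEA held both motifs and so did RTNLB13, where CATGCA and TGCATG overlap, while AT2G22510 and TAT3 held neither. Over all 27443 protein-coding genes of the nuclear chromosomes, 22.9% had ACGTG on either strand in such a stretch, and over the 478 protein-coding genes around CLF 23.4% did. The share was 48.3% (28 of 58) for the genes around CLF at least 2-fold higher in clf-28 siliques and 24.3% (9 of 37) for those at least 2-fold lower there. Outside the 644 loci, in a set not cleared of CLF and AGL17, it was 33.1% (696 of 2101) for genes at least 2-fold higher in clf-28 siliques. Genes around CLF that were at least 2-fold higher in clf-28 roots or leaves had it in 16 of 39 (41.0%). CATGCA was in 8.62% of the genes around CLF that were higher in siliques, against 8.43% of all genes. In the same set outside the 644 loci, CATGCA was in 14.8% (310 of 2101) of the genes at least 2-fold higher in clf-28 siliques.

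Of the other motifs searched on both strands, CCGAC was in 13.8% of the stretches around CLF against 12.0% of all, TTGAC in 44.8% against 44.9%, GAGAGA in 22.4% against 20.6% and AAACCCTA in 5.02% against 4.49%. Around CLF, CCGAC was in 17.2% of genes at least 2-fold higher in clf-28 siliques and 2.70% of those at least 2-fold lower. In the same order these shares were 46.6% and 59.5% for TTGAC, 24.1% and 21.6% for GAGAGA and 6.90% and 0% for AAACCCTA. CACGTG contains ACGTG on both strands and was counted once per gene. These are letter matches in one stretch of each gene, and the shares were not tested.

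Most loci around CLF had close levels in the 2 genotypes. Ratios under 1.5-fold were found for 295 of 355 measured loci in roots (83.1%, against 84.4% of all measured loci in the table), 260 of 327 in leaves (79.5% against 81.6%), 362 of 396 in flowers (91.4% against 90.4%) and 232 of 405 in siliques (57.3% against 63.8%). The median log2 ratio was -0.07 in roots, where the rest of chromosome 2 had -0.10. It was -0.05 in leaves against -0.04, -0.02 in flowers against 0.00 and -0.04 in siliques against -0.02. These medians differed from the rest of the chromosome by at most 0.03 on the log2 scale, which is small beside the interquartile range of the ratios around CLF, which was 0.43 for roots, 0.47 for leaves, 0.36 for flowers and 0.90 for siliques. Over the whole region no larger shift was seen in any organ, but within 250 kb of CLF the median lay 0.105 above the rest of the chromosome in roots and 0.087 above it in siliques, and within 500 kb it lay 0.092 above it in roots.

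In roots, 25 of the 355 loci (7.04%) were at least 2-fold higher in clf-28, where 5.55% of all measured loci and 5.34% of those on the rest of chromosome 2 were, and 2 loci (0.563%) were at least 2-fold lower, against 1.22% of all and 1.21% on the rest of the chromosome. In leaves, 25 of 327 (7.65%) were higher against 5.45% of all and 5.42% on the rest of the chromosome, and 3 (0.917%) were lower against 1.43% and 1.25%. In flowers, 2 of 396 (0.505%) were higher against 1.51% of all and 1.29% on the rest of the chromosome, and 3 (0.758%) were lower against 1.04% and 0.718%. In siliques, 66 of 405 (16.3%) were higher against 11.4% of all and 12% on the rest of the chromosome, and 40 (9.88%) were lower against 8% of all and 8.36% on the rest. Shares of higher loci were thus somewhat above the background in roots, leaves and siliques and below it in flowers. Taking loci with the same coordinates once, 22 of 309 were higher in roots, 21 of 286 in leaves, 2 of 339 in flowers and 55 of 349 in siliques. Counted the same way on the rest of chromosome 2, 130 of 2357 were higher in roots and 121 of 2207 in leaves. There, 30 of 2458 were higher in flowers and 312 of 2509 in siliques.

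Chromosome 2 was also divided into 9 windows of the same width, of which the CLF window was 1. They were laid outward from CLF, and the stretches at both chromosome ends that did not fill a window were left out. The share of higher loci in the CLF window was the highest of the 9 in leaves, where the other 8 spanned 0% to 7.55%, and in siliques, where they spanned 7.32% to 15.1%. In roots it was equal to that of another window, at 7.04%, and in flowers it was in place 8 of 9. For lower loci it was in place 7 in roots and leaves and place 3 in flowers and siliques. The leaf value was nearest to that of the window centred 4.01 Mb below CLF (7.55%), while the 2 adjacent windows had 4.04% and 5.57%, and in siliques the adjacent windows had 10% and 15.1%. The windows held unlike numbers of measured loci. The lowest leaf and silique shares came from 1 window with 31 measured loci in leaves and 41 in siliques. The leaf share of 7.55% was 8 of 106 loci, against 25 of 327 in the CLF window. The order was not tested.

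**Figure D1:**
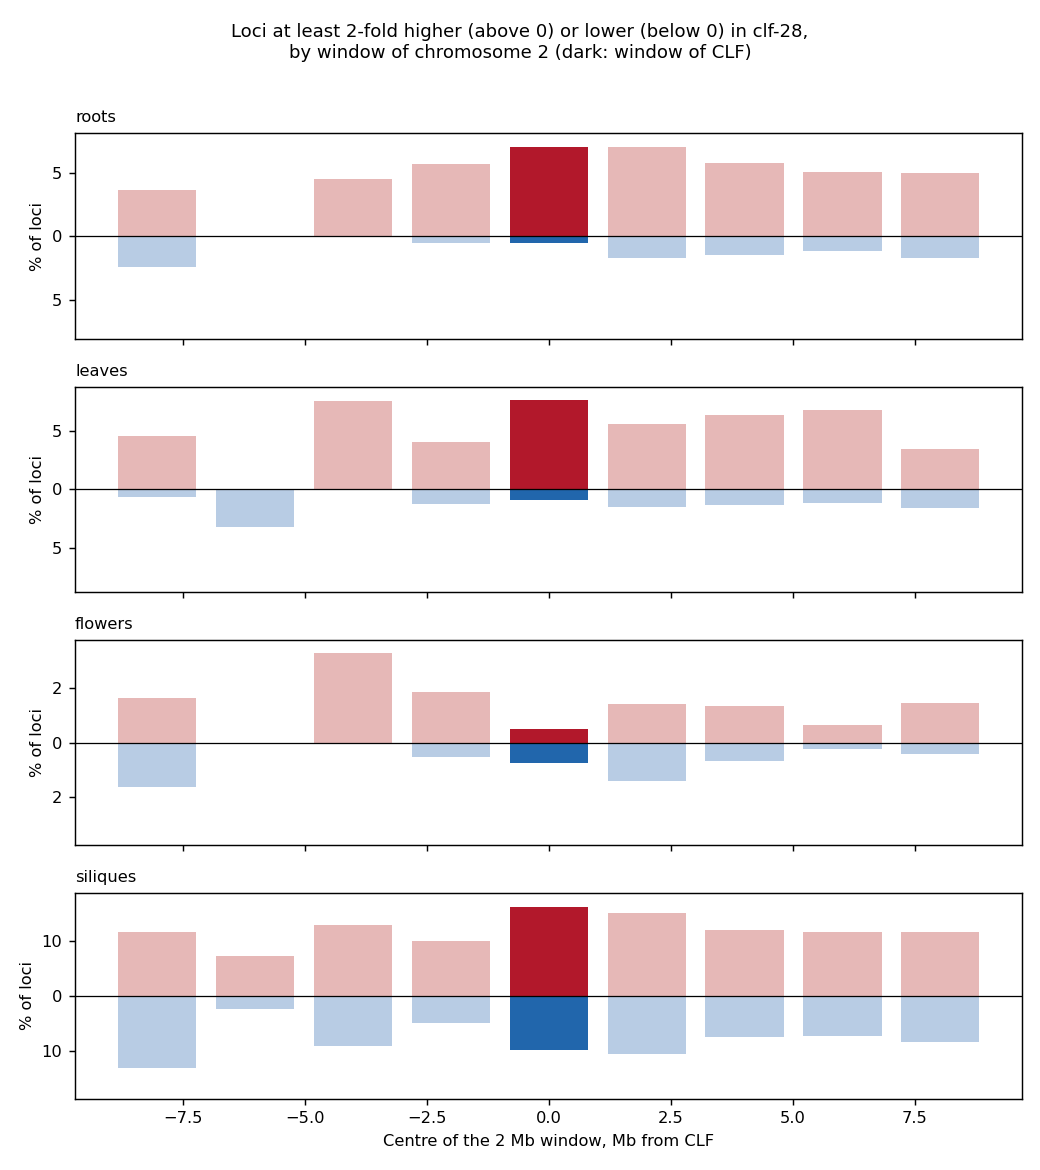
Share of measured loci at least 2-fold higher (above 0) or lower (below 0) in clf-28 in each of 9 windows of chromosome 2, by organ; the x axis is the centre of the window in Mb from CLF and the dark bars are the CLF window. In siliques the CLF window had 16.3% higher loci, against 7.32% to 15.1% in the other windows, and in flowers it had 0.505%.

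By distance, the loci within 50 kb of CLF had no member at least 2-fold different in roots (20 measured) or flowers (19 measured). In leaves 2 of 17 were higher (11.8%, against 5.45% of all measured loci in the table) and none was lower. In siliques 5 of 20 were higher (25%, against 11.4% of all) and 1 was lower (5%, against 8%). Between 50 and 250 kb, 11 of 64 were higher in roots, 6 of 60 in leaves, 1 of 75 in flowers and 25 of 79 in siliques. From 500 to 1000 kb these counts were 7 of 179, 12 of 173, 1 of 210 and 25 of 213. The share between 50 and 250 kb in siliques was 31.6%, where 11.4% of all measured loci in the table were higher, and 12 of the 79 were lower there (15.2%, against 8% of all), while in roots the share of higher loci was 17.2% where 5.55% of all were. In roots, 8 of those 11 loci lay at lower coordinates, where the median log2 ratio over 31 measured loci was 0.46, while the 33 measured loci at the same distance on the other side had a median of -0.01. The loci within 50 kb thus had a lower share of higher loci than the class from 50 to 250 kb in roots, flowers and siliques. In leaves they had a slightly greater one, 11.8% of 17 loci against 10% of 60. The flower difference rests on 1 of 75 loci against none of 19. Beside all measured loci, the share within 50 kb was above the background in leaves and siliques. The shares by distance were not tested.

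**Figure D2:**
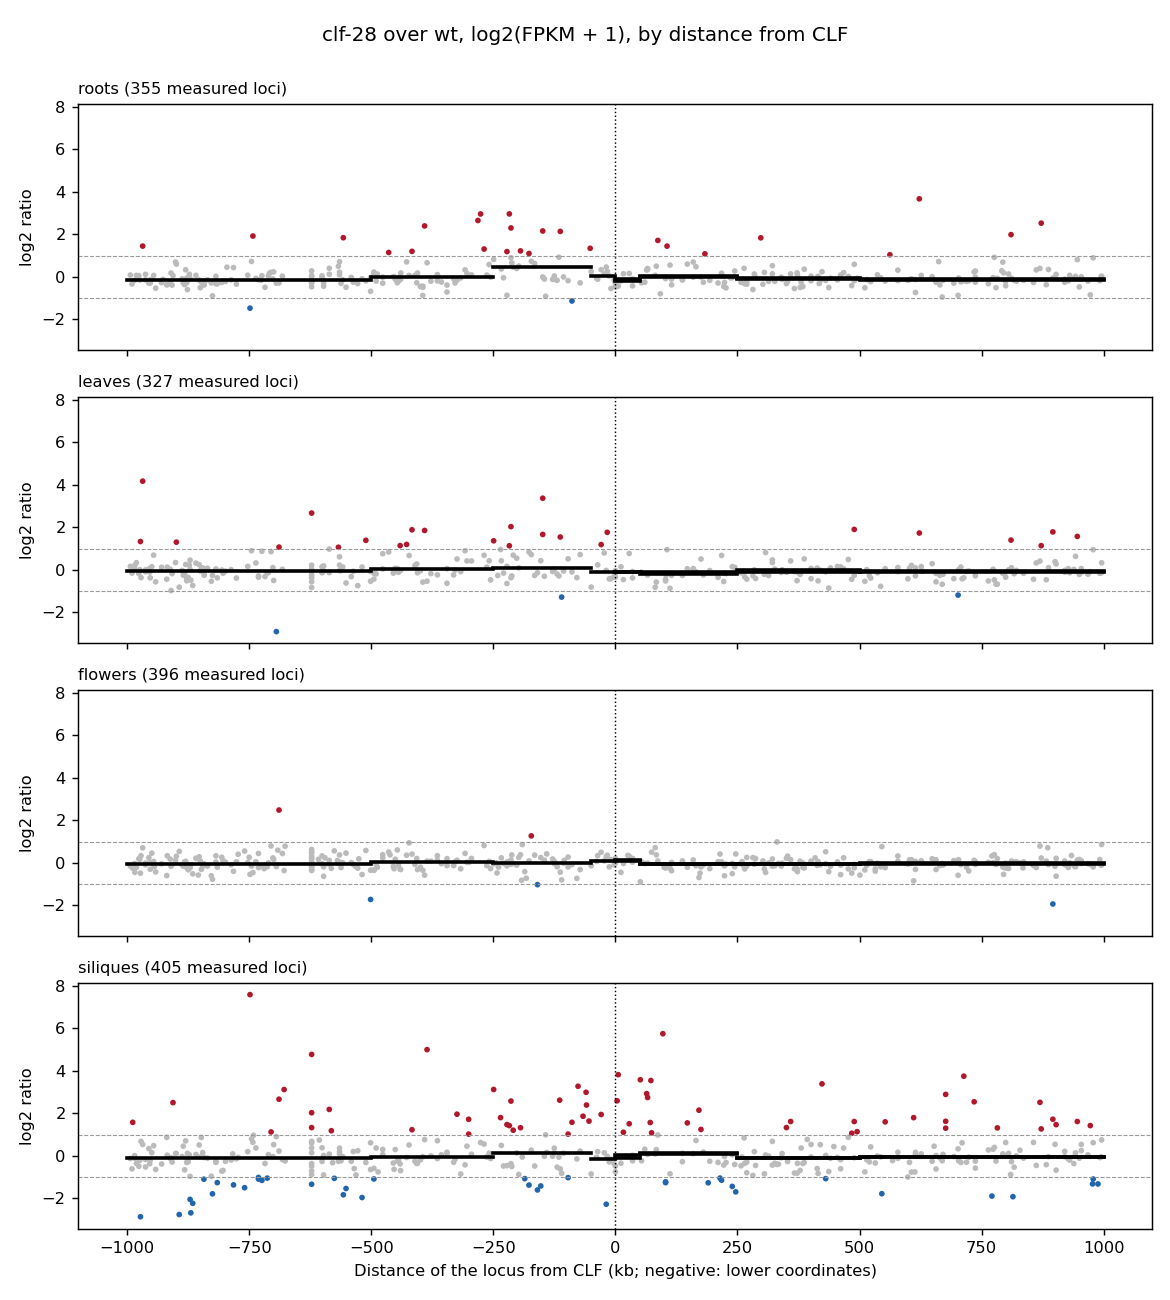
Log2 ratio of clf-28 over wt against distance from CLF in kb, with 1 point per measured locus and 1 panel per organ. Red points are at least 2-fold higher, blue points at least 2-fold lower and black lines are medians within distance classes. To the right of CLF each class carries a further black line, the median of both sides together. Points within 50 kb lie between -0.55 and 0.46 in roots and between -2.27 and 3.82 in siliques.

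The 20 loci nearest to CLF, 10 on each side, reached 32.0 kb below it and 35.1 kb above it. Of these, 16 were measured in roots and also in siliques, 14 in leaves and 15 in flowers, and in roots and flowers each measured one was under 1.5-fold. AT2G23390 ended next to CLF, 13 bases from its upper end in the table, and the RefSeq annotations of the pair overlap. Its main row had 7.67 FPKM in clf-28 roots against 10.6 in wt roots, 31.3 in clf-28 leaves against 39.8 in wt leaves, 30.03 in clf-28 flowers against 30.43 in wt flowers and 24.1 in clf-28 siliques against 33.8 in wt siliques. On the other side AT2G23370, 462 bases from CLF, had 9.16 FPKM in clf-28 roots against 11.2 in wt roots, 5.92 in clf-28 leaves against 6.77 in wt leaves, 10.6 in clf-28 flowers against 10.2 in wt flowers and 6.29 in clf-28 siliques against 6.98 in wt siliques. Both were under 1.5-fold in each organ, while a second row of AT2G23390 with the same coordinates had 5.84 FPKM in clf-28 siliques against 10.5 in wt siliques. Reads from their overlap with CLF cannot be assigned to a strand, since the kit does not mark strand.

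CPT, a cis-prenyltransferase gene 5.77 kb from CLF, and its tandem copy AT2G23400, 3.46 kb from CLF, had the largest ratios of the 20. CPT had 22.1 FPKM in clf-28 siliques against 0.629 in wt siliques, and 7.11 in clf-28 roots against 9.92 in wt roots. AT2G23400 had 5.10 FPKM in clf-28 siliques against 0.0110 in wt siliques, and 3.27 in clf-28 roots against 3.84 in wt roots. In leaves and flowers both genes were at 0.0344 FPKM or less in either genotype. The pair was therefore higher in clf-28 in siliques and slightly lower in roots, beside the seed markers SESA1 and SESA5 at 9492 FPKM in clf-28 siliques against 0.600 in wt siliques, and reads shared by the 2 copies could have been split between them.

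WRKY15, a WRKY transcription factor gene 29.2 kb below CLF, was at least 2-fold higher in clf-28 in 2 organs. It had 55.2 FPKM in clf-28 roots against 43.5 in wt roots, 90.2 in clf-28 leaves against 38.9 in wt leaves, 23.0 in clf-28 flowers against 15.9 in wt flowers and 35.6 in clf-28 siliques against 8.47 in wt siliques. It was higher in clf-28 in 4 of 4 organs, with a mean log2 ratio of 0.995 ± 0.736 (SD over 4 organs, 1 pair of libraries each). DEAR3, an AP2/ERF factor gene of the DREB group, had 16.6 FPKM in clf-28 leaves against 4.16 in wt leaves and 12.9 in clf-28 siliques against 13.1 in wt siliques. ICK1, which encodes an inhibitor of cyclin-dependent kinases, had 12.9 FPKM in clf-28 siliques against 5.44 in wt siliques. AT2G23450, a protein kinase gene, had 22.7 FPKM in clf-28 siliques against 7.29 in wt siliques. An unnamed locus 18.8 kb below CLF was the one among the 20 that was lower, with 0.508 FPKM in clf-28 siliques against 6.28 in wt siliques. The poly(A)-binding protein gene PAB4, AT2G23360, NAPRT2 and XLG1 lay under 1.5-fold in each organ.

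**Figure D3:**
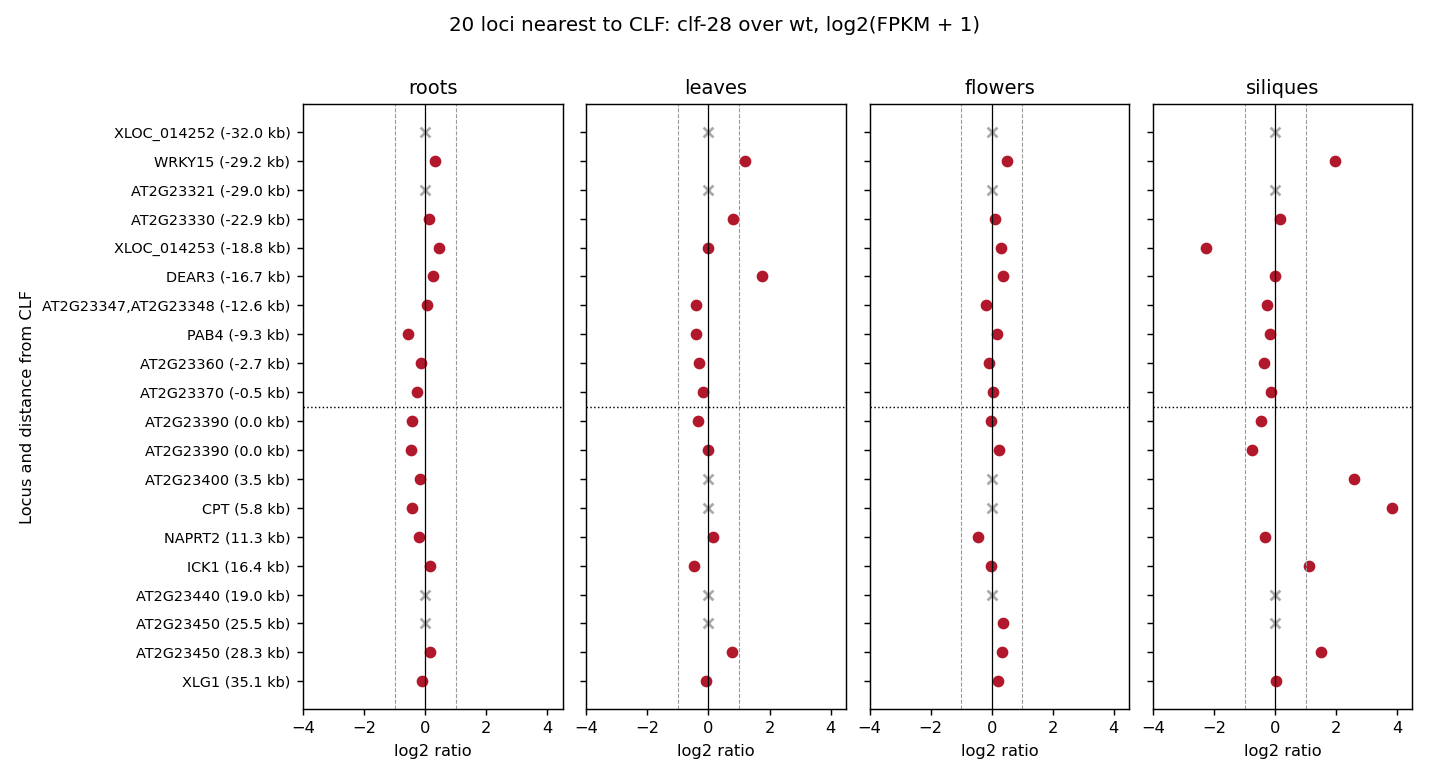
Log2 ratio of clf-28 over wt for the 20 loci nearest to CLF, in order along the chromosome, with 1 panel per organ; the dotted line is the place of CLF, dashed lines are 2-fold and grey crosses at 0 are loci not measured in that organ. In siliques CPT is at 3.82 and AT2G23400 at 2.59, while in roots all measured loci lie between -0.55 and 0.46.

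Siliques held the largest differences. LEA (AT2G21490), a dehydrin gene 748 kb below CLF, had 191 FPKM in clf-28 siliques and was listed at 0 in wt siliques; it had 25.5 in clf-28 flowers against 37.6 in wt flowers and 0.103 in clf-28 roots against 2.05 in wt roots. RTNLB13, a reticulon-like membrane protein gene 97.2 kb above CLF, had 54.1 FPKM in clf-28 siliques against 0.0230 in wt siliques, and was under 0.2 FPKM in the other 6 libraries. AT2G22510 had 113 FPKM in clf-28 siliques against 2.57 in wt siliques, and 230 in clf-28 roots against 145 in wt roots. These genes were near 0 or low in wt siliques and abundant in clf-28 siliques. AT2G21820 had 43.6 FPKM in clf-28 siliques against 0.630 in wt siliques and 10.2 in clf-28 leaves against 0.748 in wt leaves; it shares its coordinates with other rows, RNR1 among them.

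The 5 lowest ratios in siliques were those of AT2G20870, PRP2, AT2G21210, an unnamed locus and AT2G21220. PRP2, a proline-rich cell wall protein gene, had 78.2 FPKM in clf-28 siliques against 534 in wt siliques, 29.7 in clf-28 leaves against 52.9 in wt leaves and 43.9 in clf-28 flowers against 29.9 in wt flowers. AT2G21210 and AT2G21220 are SAUR genes of the auxin response. AT2G21210 had 5.41 FPKM in clf-28 siliques against 40.0 in wt siliques, and AT2G21220 had 20.05 against 97.54. Of the 40 lower loci in siliques, 22 were among the 78 measured loci whose highest wt level was in siliques. Of the 66 higher ones, 24 were among the 134 with their highest wt level in roots. Of all 405 measured loci around CLF, 16.3% were higher, close to the share among those 134, and 9.88% were lower. The same sorting was not made over all loci. As wt siliques are part of that sorting, these counts are a description.

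In roots the largest ratio was that of TAT3, a tyrosine aminotransferase gene that responds to jasmonate. It had 13.0 FPKM in clf-28 roots against 0.0947 in wt roots, 2.56 in clf-28 leaves against 0.0706 in wt leaves, 0.783 in clf-28 flowers against 0.913 in wt flowers and 0.785 in clf-28 siliques against 0.168 in wt siliques. PSK2, which encodes a precursor of the peptide hormone phytosulfokine, had 168 FPKM in clf-28 roots against 20.7 in wt roots, 4.21 in clf-28 leaves against 1.37 in wt leaves, 4.64 in clf-28 flowers against 4.69 in wt flowers and 7.13 in clf-28 siliques against 2.02 in wt siliques. AT2G25460 had 38.2 FPKM in clf-28 roots against 5.79 in wt roots. PSK2 and AT2G25460 were at least 2-fold higher in roots, leaves and siliques, and TAT3 in roots and leaves. The 2 lower loci in roots were LEA, with the values above, and GH3.3, an auxin-conjugating enzyme gene, with 3.36 FPKM in clf-28 roots against 8.55 in wt roots. Beside these root values, the green-tissue markers summed to 82.1 FPKM in clf-28 roots against 210 in wt roots (3 of 3 markers). The root markers IRT1 and PHT1;1 summed to 274 against 490. That gap was in IRT1, at 159 FPKM in clf-28 roots against 373 in wt roots, while PHT1;1 had 115.0 against 116.5. The 4 seed markers summed to 0.0472 FPKM in clf-28 roots against 22.9 in wt roots. Their part in the results was not tested.

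In leaves the largest ratio was that of ERF53, an AP2/ERF transcription factor gene linked to drought, which had 51.8 FPKM in clf-28 leaves against 1.92 in wt leaves and 17.6 in clf-28 roots against 5.82 in wt roots. SNRK2.9, a kinase gene of the SnRK2 family, stands on 2 rows with the same coordinates, and both were higher in leaves, at 33.9 FPKM in clf-28 against 2.37 in wt and at 9.90 in clf-28 against 2.43 in wt. AT2G22880 had 38.9 FPKM in clf-28 leaves against 8.73 in wt leaves and 104 in clf-28 roots against 20.3 in wt roots. AT2G24600 had 29.98 FPKM in clf-28 leaves against 7.27 in wt leaves. The 3 lower loci in leaves were MEE3, a MYB-like gene, with 0.344 FPKM in clf-28 leaves against 9.05 in wt leaves, the arabinogalactan protein gene AGP17 with 5.27 against 14.2, and ENODL14 with 18.8 against 43.9.

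In flowers 2 loci were at least 2-fold higher. GRP7, a glycine-rich RNA-binding protein gene of the circadian system, had 598 FPKM in clf-28 flowers against 106 in wt flowers, 1152 in clf-28 leaves against 547 in wt leaves, 1489 in clf-28 roots against 1813 in wt roots and 875 in clf-28 siliques against 747 in wt siliques. SCPL13 had 78.1 FPKM in clf-28 flowers against 31.7 in wt flowers. The 3 lower loci in flowers were AT2G25510, with 10.9 FPKM in clf-28 flowers against 44.5 in wt flowers, the myo-inositol phosphate synthase gene MIPS2 with 43.1 against 144, and scpl10 with 16.0 against 33.5. Beside these, the pollen coat markers GRP17 and GRP19 summed to 904 FPKM in clf-28 flowers against 1637 in wt flowers, and their part was not tested.

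**Figure D4:**
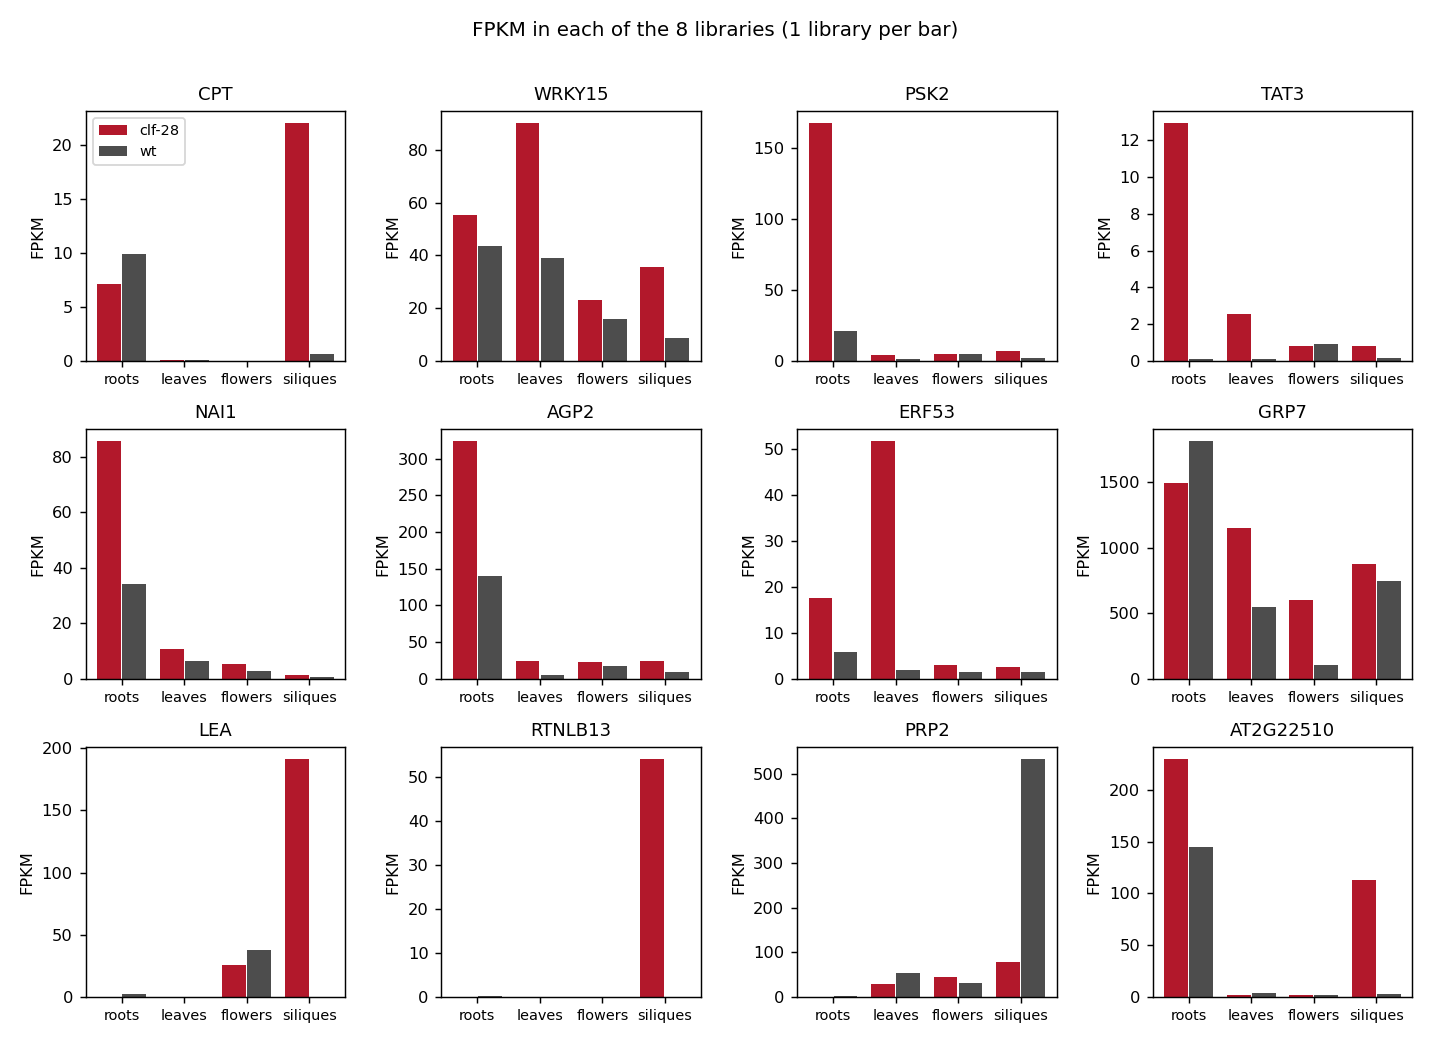
FPKM of 12 loci around CLF in each of the 8 libraries, clf-28 in red left of wt in grey, 1 library per bar and no error bars because each group is 1 library. LEA, RTNLB13 and CPT are high in clf-28 siliques against near 0 in wt siliques, and PSK2 and TAT3 in clf-28 roots.

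Across organs, 137 of the 471 loci measured in at least 1 organ (29.1%) were at least 2-fold different in 1 or more, against 23.5% of all such loci in the table and 23.3% on the rest of chromosome 2. None of the 471 was higher in all 4 organs, where 0.0576% of all were, but this holds only with AGL17 left out. AGL17 lies within 1 Mb of CLF and was set aside at the start. It was at least 2-fold higher in every organ, with log2 ratios from 1.11 (flowers) to 3.23 (leaves). Of the 471, 4 (0.849%, against 0.671% of all) were higher in 3 organs, AGP2, PSK2, AT2G22880 and AT2G25460, each in roots, leaves and siliques. AGP2, an arabinogalactan protein gene, had 324 FPKM in clf-28 roots against 140 in wt roots, 23.7 in clf-28 leaves against 5.68 in wt leaves, 22.9 in clf-28 flowers against 17.0 in wt flowers and 24.0 in clf-28 siliques against 9.65 in wt siliques. Another 14 loci (2.97%, against 2.64% of all) were higher in 2 organs, among them UCP5, a mitochondrial carrier gene, and HAT9, a homeodomain-leucine zipper gene. UCP5 had 62.4 FPKM in clf-28 roots against 11.04 in wt roots and 34.4 in clf-28 leaves against 8.77 in wt leaves. HAT9 had 21.8 FPKM in clf-28 leaves against 7.83 in wt leaves and 12.4 in clf-28 siliques against 0.535 in wt siliques. Only scpl10 was lower in 2 organs, flowers and siliques (0.212%, against 0.803% of all that were lower in 2 or more). Directions were opposite in 2 organs at 6 loci (1.27%, against 1.14% of all).

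The one test the design allows takes the 4 organs as pairs. A limma fit with organ as a block, on the log2 scale, tested 24078 loci of the table, and 0% passed at an adjusted p of 0.05, so none of the 469 tested loci around CLF did; the smallest adjusted p among them was 0.414. At an unadjusted p under 0.05, 24 of them were higher in clf-28 (5.12%, against 5.49% of all tested) and 25 were lower (5.33%, against 6.3%). Without the leaf pair these counts were 10 and 11, and without the root pair 18 and 16. Ratios were above 0 in 4 of 4 organs at 50 of the 469 (10.7%, against 10.3%) and below 0 in 4 of 4 at 70 (14.9%, against 14.1%). By this measure the loci around CLF were close to the background in both directions. The 4 pairs are single libraries of different organs, so that p-values measure how evenly organs agree, and they may hold technical spread.

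The smallest p-values for higher loci were those of NAI1, AGP2, RD2, CYP71B6 and SCPL13. NAI1, a bHLH factor gene needed for endoplasmic reticulum bodies, had a mean log2 ratio of 0.84 with a standard error of 0.16, and AGP2 had 1.18 with a standard error of 0.24. RD2, a stress gene, had 0.75, with 83.1 FPKM in clf-28 siliques against 37.5 in wt siliques and 147 in clf-28 roots against 126 in wt roots. For lower loci they were RPA2, MCM10, ATCSLC08, RNR1 and BBX18. RPA2, a subunit of replication protein A, averaged -0.63 (standard error 0.11), MCM10, a replication factor, -0.54, and RNR1, the large subunit of ribonucleotide reductase, -0.51. RPA2 had 3.60 FPKM in clf-28 leaves against 7.34 in wt leaves and 6.81 in clf-28 siliques against 12.0 in wt siliques. None of these 10 passed, each with an adjusted p of 0.414 in limma.

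Several families lie in clusters around CLF. With shared coordinates counted once, 22.7% of the higher loci around CLF in roots had an adjacent measured locus also higher. On the rest of chromosome 2 it was 25.4%. These shares were 0% against 25.6% in leaves, 0% against 13.3% in flowers and 38.2% against 35.3% in siliques. For lower loci they were 44.1% against 29.9% in siliques, and 0% around CLF in the other organs. None of these shares was tested. The MES genes encode methyl esterases, some of which cleave methyl salicylate or methyl jasmonate, and 8 of them fill 7 loci between 65.9 and 87.0 kb above CLF. In siliques all 7 were measured, with a median log2 ratio of 1.09 against -0.01 over all measured loci, and 4 were at least 2-fold higher, where 11.4% of all were. The merged locus of AT2G23550 and AT2G23560 had 273 FPKM in clf-28 siliques against 39.8 in wt siliques, and MES4 had 147 against 11.7. MES8 had 17.8 FPKM in clf-28 siliques against 7.81 in wt siliques and MES19 had 4.26 against 0.770. In roots MES1 was the one higher of 4 measured, at 56.5 FPKM in clf-28 against 16.5 in wt, and ACL, also known as MES2, had 50.3 FPKM in clf-28 leaves against 89.4 in wt leaves. In leaves (3 measured) and flowers (5 measured) no MES locus was 2-fold different.

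The SCPL cluster, serine carboxypeptidase-like genes that include acyltransferases, lies 153 to 198 kb below CLF. In siliques 3 of 6 measured loci were at least 2-fold lower, where 8% of all measured loci were, and none was higher, with a median of -1.12 against -0.01 over all. SCPL11 had 46.6 FPKM in clf-28 siliques against 122 in wt siliques, scpl10 had 10.2 against 33.0 and SCPL9 had 6.28 against 18.4. In roots the order was the other way for SCPL11, with 79.4 FPKM in clf-28 roots against 36.5 in wt roots, the one higher of 4 measured. SNG1, the sinapoyltransferase that makes sinapoylmalate and the most abundant of the cluster in leaves, had 396 FPKM in clf-28 leaves against 475 in wt leaves and 267 in clf-28 siliques against 371 in wt siliques. MES and SCPL genes are tandem copies, and how the authors' counting split shared reads is not given in the sources used here.

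**Figure D5:**
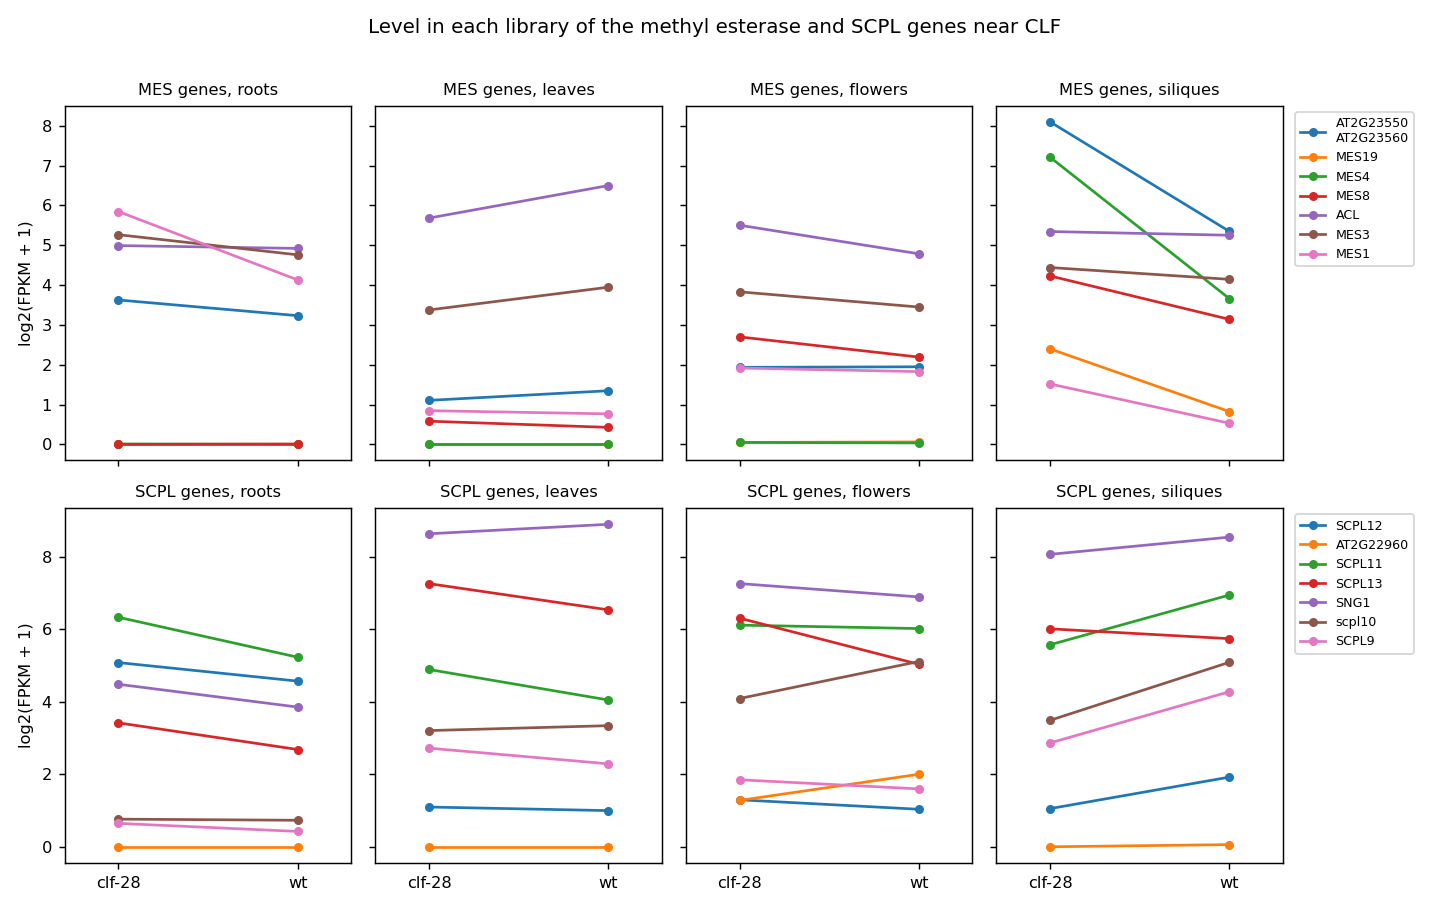
Level as log2(FPKM + 1) of the MES and SCPL loci in each organ, with clf-28 left of wt and 1 line per locus. In siliques the MES4 line falls toward wt, at 147 FPKM in clf-28 against 11.7 in wt, whereas the SCPL11 line climbs, at 46.6 FPKM in clf-28 against 122 in wt.

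The 3 adjacent bHLH genes AT2G22750 (bHLH18), AT2G22760 (bHLH19) and NAI1 were all at least 2-fold higher in clf-28 roots, where 5.55% of all measured loci were. AT2G22750 had 6.47 FPKM in clf-28 roots against 0.187 in wt roots, AT2G22760 had 11.5 against 0.606 and NAI1 had 85.8 against 34.0. In the other organs no more than 2 of the 3 were measured and none was 2-fold different. WRKY15 was the one higher of 3 measured WRKY loci in leaves and in siliques, where WRKY17 had 8.13 FPKM in clf-28 siliques against 3.98 in wt siliques. WRKY60 had 5.15 FPKM in clf-28 roots against 10.9 in wt roots and was not 2-fold different on the log2(FPKM + 1) scale.

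Of 7 clock, light and stress genes, 3 were at least 2-fold higher in leaves, where 5.45% of all measured loci were, with a median of 0.86 against -0.02 over all measured loci. They were GRP7, DEAR3 and HB6, a homeodomain-leucine zipper gene of abscisic acid signalling, which had 252 FPKM in clf-28 leaves against 109 in wt leaves. GRP7 was the one higher of 7 in flowers, RD2 in siliques, and none was 2-fold different in roots. Of 7 auxin, ethylene and cytokinin genes, 5 were measured in each organ. GH3.3 was lower in roots and higher in siliques, at 55.0 FPKM in clf-28 siliques against 17.7 in wt siliques, and AT2G21220 was lower in siliques. The auxin repressor gene IAA8 had 216 FPKM in clf-28 siliques against 390 in wt siliques.

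Of 6 plastid metabolism genes, 2 were lower in siliques, where 8% of all measured loci were, and none was 2-fold different elsewhere. FBA1, a plastid fructose-bisphosphate aldolase gene, had 115 FPKM in clf-28 siliques against 398 in wt siliques, and YCF37 had 14.0 against 34.9; beside them LHCB2.1 stood at 548 against 1753. The 6 chromatin genes had no locus 2-fold different in any organ, with 3 measured in roots and also in leaves, 4 in flowers and 5 in siliques. PKL, a CHD3-type chromatin remodeller gene, had 28.1 FPKM in clf-28 siliques against 29.8 in wt siliques and 23.6 in clf-28 roots against 28.2 in wt roots. SUVR5 had 11.7 FPKM in clf-28 siliques against 10.7 in wt siliques.

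Of 5 genes listed as gamete and pollen genes, 2 measured in siliques were both higher, where 11.4% of all measured loci were. EC1.3, an egg cell protein gene, had 5.56 FPKM in clf-28 siliques against 0.603 in wt siliques and 6.51 in clf-28 flowers against 3.85 in wt flowers. AT2G25130 had 6.94 FPKM in clf-28 siliques against 0.358 in wt siliques. Its level was not confined to reproductive organs, at 1.54 FPKM in clf-28 roots against 1.17 in wt roots. In flowers it had 1.21 in clf-28 against 1.03 in wt. Beside these, the pollen coat markers GRP17 and GRP19 summed to 9.54 FPKM in clf-28 siliques against 0.133 in wt siliques, and their part was not tested. CYP81D7 was the one higher of 2 measured cytochrome P450 loci of the CYP96A and CYP81D groups in siliques, at 19.6 FPKM in clf-28 against 1.12 in wt, and CYP96A1 had 14.7 against 16.3. Of 5 UGT glycosyltransferase genes, AT2G22930 was the one measured in roots and was higher (5.55% of all were), at 7.48 FPKM in clf-28 against 2.64 in wt, and AT2G22930 and UGT84B1, the 2 measured in siliques, were higher there (11.4% of all were), UGT84B1 at 8.70 against 2.11.

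Each value in the deposited table comes with an interval from the authors. Around CLF the lower bound was 0 for 89.3% to 92.8% of the measured values in each library, and the upper bounds lay at 2.39 to 2.51 times the value in the median. At none of the loci around CLF were the 2 intervals of an organ apart, which was also rare over the table, at 0.201% of measured loci in siliques, 0.0355% in roots, 0.054% in leaves and 0.0191% in flowers. CPT, for example, had an upper bound of 2.32 FPKM in wt siliques and a lower bound of 0 in clf-28 siliques.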

How the data were processed

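RNA of 4 organs of clf-28 and wt plants was sequenced with 1 library per group, and the authors deposited 1 table of FPKM values per locus, with an interval and a status for each value. Per the submitters' processing notes, TopHat, Cufflinks and the TAIR10 build were used; versions, strand setting and the treatment of multiply mapped reads are not given in the sources used here. The FPKM values were used as deposited, without rescaling. Loci were placed by the table's TAIR10 coordinates, and 97.5% of the 593 matched loci around CLF overlapped their RefSeq gene in TAIR10.1, whose chromosome 2 has 19698289 bases. Sequences and motifs were read from that assembly.

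Ratios used log2(FPKM + 1). Measured loci had status OK in both libraries and at least 1 FPKM in either. Limma 3.58.1 in R 4.3.3 was fitted to all loci with organ as a block and a mean-variance trend, with Benjamini-Hochberg adjustment. It was also run on simulated data with equal noise at every locus and the same shift in every organ. Those settings differ from these data, so that run does not show how the fit performs here. Other steps used Python 3.11.15 with pandas 2.3.3. The block pairs clf-28 and wt libraries of 1 organ; the replicate number is 1 in each group and pairs nothing. Loci named in the text are the 10 nearest on each side of CLF, the 5 highest and 5 lowest ratios per organ, the 5 smallest limma p-values per direction among loci of the same sign in 4 of 4 organs, and examples from gene lists; a few loci that differ in several organs, 2 second rows and the 6 upstream sequences were chosen after the values were seen. The members, gene lists and tests were chosen with earlier results of these data known. Alternatives were other pseudocounts, filters, scalings, window widths, fold limits, backgrounds and fits without an organ.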

Additional observations from a re-analysis of the deposited data

Results flagged for a closer look

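At 6 of the 471 loci around CLF measured in at least 1 organ (1.27%) the clf-28 over wt ratio was at least 2-fold in opposite directions in 2 or more organs, a share near the 1.14% of all such loci in the table. Each organ has 1 pair of libraries, so that the difference between organs was not tested. All values are log2 ratios on the log2(FPKM + 1) scale. LEA, the dehydrin gene, was at -1.47 in roots and 7.59 in siliques, where wt was listed at 0. AT2G20870 was at 1.34 in leaves and -2.86 in siliques, with 3.18 FPKM in clf-28 leaves against 0.656 in wt leaves. LCR35, a gene for a small cysteine-rich protein, was at 1.84 in roots and -1.83 in siliques, with 30.2 FPKM in clf-28 siliques against 110 in wt siliques. SCPL11 was at 1.10 in roots and -1.37 in siliques. GH3.3 was at -1.13 in roots and 1.58 in siliques. AT2G25510 was at 1.79 in leaves, -1.93 in flowers and 1.73 in siliques, with 189 FPKM in clf-28 leaves against 54.0 in wt leaves and 121 in clf-28 siliques against 36.0 in wt siliques.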

How the results depend on the processing

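Of 204 comparisons of the medians, counts and limma results with an alternative setting, 158 stayed within 0.1 log2 or 1.5-fold and 46 moved further; of 1308 for the named loci, 1246 stayed and 62 moved, and 0 ratios of at least 2-fold changed sign. Signs near 0 did turn, at 4 of 80 medians or their differences (main sizes up to 0.072), among them the root median at 0.019 when centred, and at 9 of the 1308 ratios (main sizes up to 0.087). The numbers below are counts of loci, first in roots, leaves, flowers and siliques for those higher in clf-28, main values 25, 25, 2 and 66, and then for those lower, 2, 3, 3 and 40. Within 250 kb of CLF 11, 8, 1 and 30 were higher and 1, 1, 1 and 13 lower, and the silique median became 0.070 and its difference from the rest of chromosome 2 became 0.087, while the root difference became 0.105, and 0.092 within 500 kb, against 0.032. Within 500 kb, 13 in leaves, 1 in flowers and 41 in siliques were higher, and 1, 1, 1 and 15 lower. At 1.5-fold, 45, 48 and 18 were higher in roots, leaves and flowers, and 15, 19, 16 and 80 lower. At 4-fold, 9, 4, 1 and 27 were higher and 0, 1, 0 and 6 lower. These changes of the counts follow from the smaller window or the other limit. The cause of the changed medians and differences was not tested. With a pseudocount of 0.1 FPKM 7 were higher in flowers and 7, 7 and 8 lower in roots, leaves and flowers. With 5 FPKM, 38 were higher in siliques, and 0 in roots and 22 in siliques lower. A filter at 5 FPKM left 1 lower in roots, and quantile scaling gave 4 higher in flowers; for these the cause was not tested. Scaling moved the median of all loci by less than 0.1 in each organ.

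The replicate block here is the organ pair. Without it limma called 0 loci, and at an unadjusted p under 0.05 there were 1 higher and 0 lower loci around CLF, against 24 and 25 with it. Leaving out 1 organ in turn gave 10 to 24 higher loci and 11 to 24 lower, the lowest of each without leaves, and 0 passed in the window under any setting of limma. No paired analysis by replicate number was possible because each group has only replicate 1. Nothing can be said of 173 of the 644 loci, which did not reach 1 FPKM with a usable status in any organ, and 1 library per group gives no error within an organ.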
